A study of Mus musculus with 11 samples.

Results

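Of the 15803 genes measured, 68 carried a single gene symbol that starts with Mrpl or Mrps followed by a digit, the symbols of mitochondrial ribosome proteins. By symbol, 41 belonged to the large subunit and 27 to the small subunit. They were measured in NSC34, a mouse cell line made by fusing neuroblastoma with embryonic spinal cord cells and used as a model of motor neurons. All cells had been transfected with a hairpin vector (pSUPERIOR), and stable clones were taken after selection with puromycin. The groups were cells with a hairpin against Tardbp (shTardbp, 4 arrays), control cells whose hairpin targets GFP (shGFP, 4 arrays) and control cells whose hairpin targets Renilla luciferase (shLuciferase, 3 arrays). Tardbp encodes TDP-43, an RNA-binding protein of the nucleus that regulates splicing and is lost from the nucleus of motor neurons in most amyotrophic lateral sclerosis. Whether arrays of 1 group stem from different clones or cultures is not in the labels, so p-values reflect the spread between arrays alone, and that spread may be technical.

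The mitochondrial ribosome translates the few messages of the mitochondrial genome, all of which encode subunits of the respiratory chain and ATP synthase. Its RNAs come from mitochondrial DNA, but all its proteins are encoded in the nucleus, made in the cytosol and imported. Some of the proteins have bacterial relatives and others were added in the evolution of mitochondria. Promoters of many such nuclear genes are known to bind NRF1, GABPA (an ETS factor) and YY1.

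The starts of the genes are shown first, because 60 of the 68 gene values were lower in shTardbp and the promoters let the members be compared with other genes. Promoter windows from RefSeq (GRCm38.p6, 250 bases before and 50 after a transcript start) were found for 59 of the 68 genes, in 62 windows. Mrpl32 and Mrpl37 are shown as large subunit genes that fell, Mrpl24 as the gene that rose, and Mrps11, which was chosen after its values were seen, because its start lies 42 bases from that of Mrpl46. Capitals mark every match, on either strand, to the letters GCGCA, any base, GCGC (NRF1), CCGGAAG (ETS and GABPA), AANATGGC (YY1) or CCAAT (the CCAAT box), and the sequences run 5′ to 3′ on the strand of the gene. Mrpl32 lies at chr13:14612988-14613287 on the minus strand, Mrpl37 at chr4:107066817-107067116 on the minus strand, Mrpl24 at chr3:87919294-87919593 on the plus strand and Mrps11 at chr7:78782881-78783180 on the plus strand.
Mrpl32: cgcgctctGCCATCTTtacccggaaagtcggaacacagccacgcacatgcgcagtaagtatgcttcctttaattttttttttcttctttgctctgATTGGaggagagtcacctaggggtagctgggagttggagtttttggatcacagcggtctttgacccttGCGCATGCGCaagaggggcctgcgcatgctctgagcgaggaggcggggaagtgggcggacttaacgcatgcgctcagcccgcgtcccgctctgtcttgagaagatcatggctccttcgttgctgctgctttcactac
Mrpl37: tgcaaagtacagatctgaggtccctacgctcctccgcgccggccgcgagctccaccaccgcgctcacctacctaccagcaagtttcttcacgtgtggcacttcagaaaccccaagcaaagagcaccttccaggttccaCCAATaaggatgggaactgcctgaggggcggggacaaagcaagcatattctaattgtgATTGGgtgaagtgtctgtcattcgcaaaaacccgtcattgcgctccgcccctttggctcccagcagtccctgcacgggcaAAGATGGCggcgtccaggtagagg
Mrpl24: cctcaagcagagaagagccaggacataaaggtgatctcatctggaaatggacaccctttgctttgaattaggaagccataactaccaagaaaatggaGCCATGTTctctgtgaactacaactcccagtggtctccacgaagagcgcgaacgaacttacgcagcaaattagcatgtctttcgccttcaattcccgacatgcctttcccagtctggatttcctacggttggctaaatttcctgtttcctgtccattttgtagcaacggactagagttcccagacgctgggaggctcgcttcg
Mrps11: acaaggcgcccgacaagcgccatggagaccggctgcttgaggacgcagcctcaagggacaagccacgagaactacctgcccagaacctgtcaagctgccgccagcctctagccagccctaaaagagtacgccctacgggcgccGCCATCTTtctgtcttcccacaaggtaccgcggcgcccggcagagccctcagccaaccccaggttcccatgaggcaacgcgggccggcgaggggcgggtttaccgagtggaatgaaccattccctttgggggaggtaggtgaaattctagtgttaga

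The Mrpl32 window held the NRF1 letters, which read the same on both strands, together with the YY1 letters and a CCAAT box on the other strand. The Mrpl37 window held the YY1 letters just after the transcript start and 2 CCAAT boxes further upstream. The windows of Mrpl24 and Mrps11 each held the YY1 letters on the other strand. Across the members, the YY1 letters were in 18 of 62 windows (29.0%), against 6.37% of 21262 windows of protein-coding genes, and the ETS letters were in 19 (30.6%), against 11.6%. The NRF1 letters were in 10 windows (16.1%), against 6.38%, and a CCAAT box was in 27 (43.5%), against 38.2%. Matches to different motifs overlapped in 0 member windows. A protein-coding gene on the other strand started within 1000 bases upstream, or overlapped the start by under 100, in 24 windows (38.7%), against 8.16% of all windows. Windows and not genes were counted, and Mrpl2 and Mrps16 have more than a single window each. All windows of these genes held a CCAAT box, and those of Mrpl2 shared the upstream gene Klc4. The 28 windows of genes that fell and the 33 of genes not past the threshold held the YY1 letters in 28.6% and 27.3%, the ETS letters in 25% and 36.4%, and the NRF1 letters in 17.9% and 15.2%. These shares describe letters in a window and say nothing of binding.

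The arrays gave log2 expression values, averaged over the probe sets of each gene. Array medians lay between 6.82 and 6.92, and the 25th percentile of all probe sets was at 4.52. Tardbp itself was 8.83, 8.80, 8.997 and 8.91 in shTardbp, against 9.25, 9.08, 9.36 and 9.42 in shGFP and 9.29, 9.38 and 9.20 in shLuciferase. All shTardbp values lay below all 7 control values, at a difference of -0.40 (SE 0.0722, limma adjusted p = 0.000713; exact two-sided permutation p = 0.00303 over 330 splits). Of the motor neuron and neuronal markers, 12 of 14 were measured, with an array mean of 9.05 to 9.28 in shTardbp and 8.88 to 9.04 in the controls. At a limma adjusted p under 0.05, 2 of the 12 rose (16.7%, against 13.5% of all genes) and 0 fell (against 17%). Slc18a3, the vesicular acetylcholine transporter, was 1 of the 2 (0.63, adjusted p = 0.000129). Chat and Mnx1, which define motor neurons, lay below the 25th percentile. Glial markers (6 of 7 measured) averaged 4.79 to 5.05 in shTardbp and 4.77 to 4.89 in the controls. Fibroblast markers (5 of 5 measured) averaged 5.27 to 5.46 in shTardbp and 5.37 to 5.83 in the controls, and among them Dcn fell (-1.61) and Pdgfrb rose (0.41). Muscle, epithelial and endothelial markers (5 of 7) averaged 5.09 to 5.16 in shTardbp and 4.93 to 5.04 in the controls, and blood markers (2 of 3) 4.91 to 5.05 in shTardbp and 4.59 to 4.98 in the controls. Mog, Epcam, Cdh5 and Ptprc lay below the 25th percentile. The part of these markers in the results on the ribosome genes was not tested. A code in the sample descriptions starts with P for the 4 shTardbp arrays and shLuciferase 4 and with C for the other 6 control arrays, and its meaning is not given. With that letter as a block in the fit, Tardbp differed by -0.29 and did not pass (adjusted p = 0.173).

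The study set depletion of TDP-43 against both control hairpins, and against these the genes of the mitochondrial ribosome were mostly lower. Of the 68 genes, 34 fell at a limma adjusted p under 0.05, while 17% of all genes measured fell and 30.5% passed in either direction. One of the 68, Mrpl24, rose, while 13.5% of all genes rose, and 33 did not pass the threshold. The median log2 difference of the 68 was -0.24, against 0.00717 for all genes, and 60 of the 68 were below 0, against 7568 of 15803. The falls were small: the 34 genes were lower by 1.15-fold to 1.97-fold, with a median of 1.29-fold. With no overlap between groups as the measure, 16 of the 68 had all 4 shTardbp values below all 7 control values, against 9.82% of all genes, and 0 had them above, against 8.45%. In bulk samples, fewer cells of a type and less RNA per cell cannot be told apart.

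The members of both subunits were mostly lower. In the large subunit 20 of 41 genes fell (48.8%) and 1 rose, with a median log2 difference of -0.21. In the small subunit 14 of 27 fell (51.9%) and 0 rose, with a median of -0.28. The median fall of the called genes was 1.26-fold in the large subunit and 1.30-fold in the small subunit. The genes Mrps30 and Mrps18a, named for the small subunit, sit in the large subunit in mammalian structures, and counted there they gave 21 of 43 lower in the large and 13 of 25 lower in the small subunit. On single arrays, the large subunit median shifted from the control mean by -0.24, -0.16, -0.23 and -0.24 in shTardbp, against -0.060, 0.13, -0.063 and -0.13 in shGFP and 0.0042, 0.076 and 0.023 in shLuciferase. The small subunit median shifted by -0.28, -0.18, -0.29 and -0.35 in shTardbp, against -0.096, 0.11, -0.086 and -0.17 in shGFP and 0.077, 0.14 and -0.024 in shLuciferase. No control array reached the shTardbp values in either subunit, but shGFP 5 lay close to shTardbp 2. The difference between the subunit medians, large minus small, was 0.042, 0.026, 0.058 and 0.12 in shTardbp, against 0.036, 0.019, 0.022 and 0.031 in shGFP and -0.072, -0.068 and 0.047 in shLuciferase. These ranges overlap between shTardbp and the controls. With the code letter as a block, the median log2 difference was -0.27 in the large and -0.16 in the small subunit, the reverse of the order without the block.

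**Figure D1:**
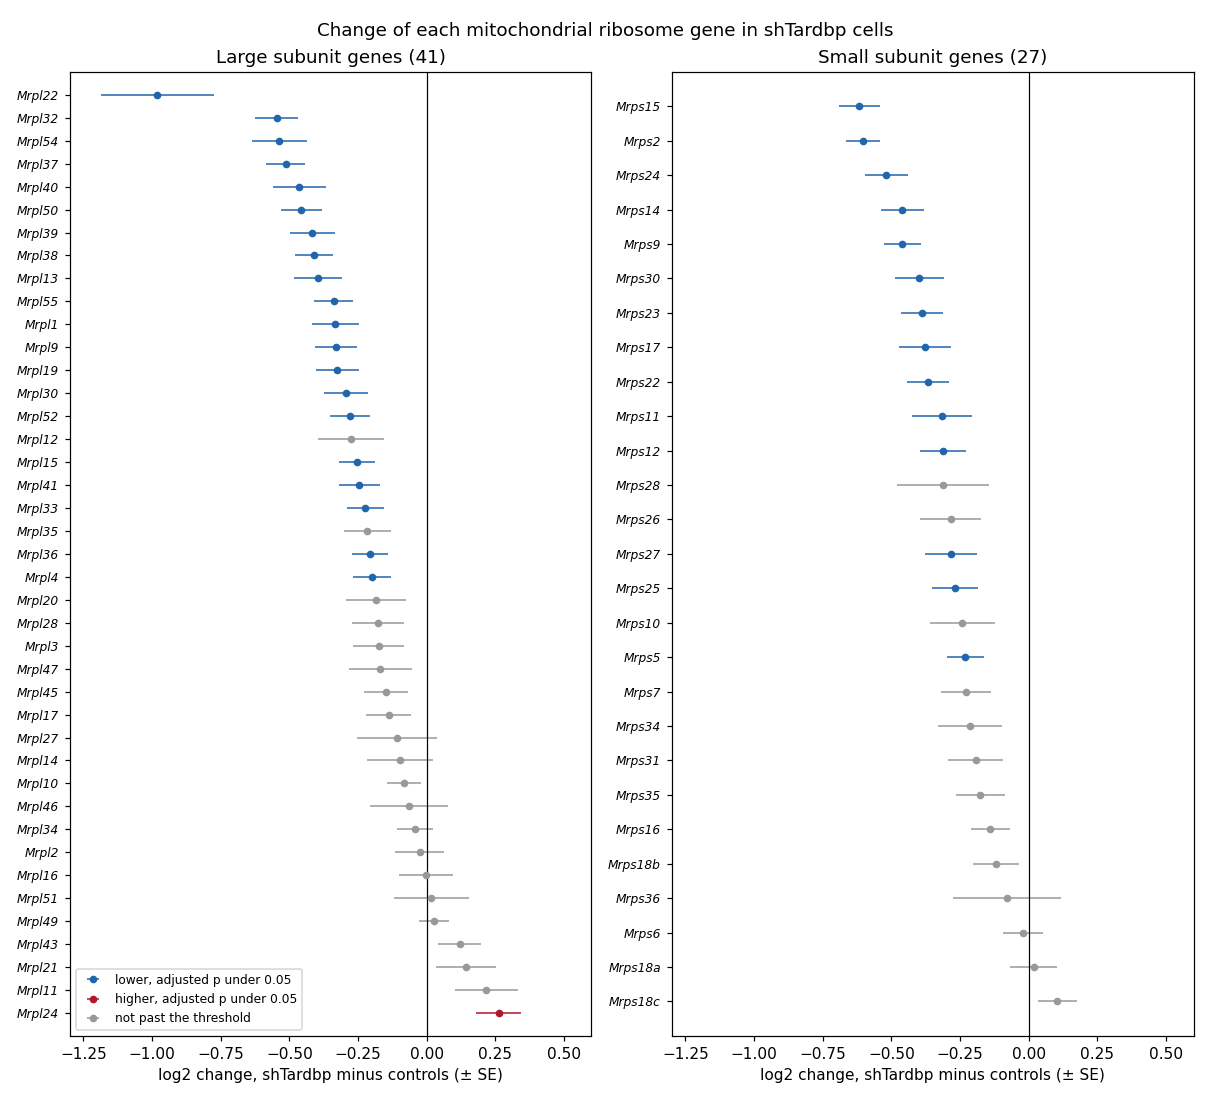
Log2 difference of each member, shTardbp minus both controls (equal weight for each control group), with its SE, for the large subunit (left, 41 genes) and the small subunit (right, 27 genes). Points in blue passed the threshold as lower (20 and 14 genes), the red point as higher (Mrpl24), and grey points did not pass.

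**Figure D2:**
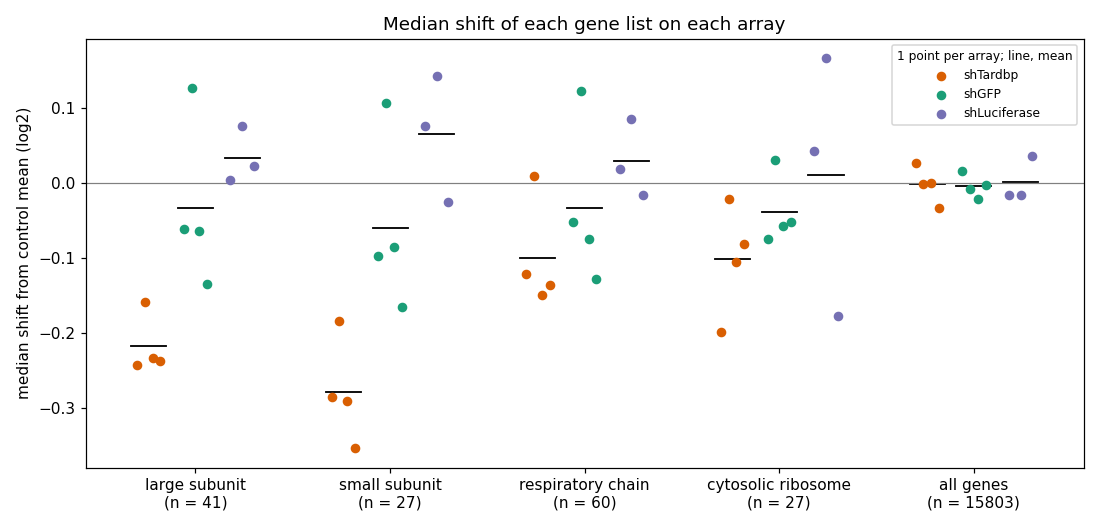
Median shift of each gene list from the control mean on each array (log2, 1 point per array, the line is the group mean), for shTardbp, shGFP and shLuciferase. Both subunits lie between -0.35 and -0.16 on the shTardbp arrays and between -0.17 and 0.14 on the control arrays, while the median of all genes stays within 0.037 of 0.

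Among the ribosomal proteins that line the exit tunnel, Mrpl22, a relative of the bacterial protein L22, had the largest difference of the 68. It stood at 6.45, 7.14, 6.34 and 6.09 in shTardbp, against 7.13, 7.73, 6.88 and 6.63 in shGFP and 8.05, 7.93 and 7.67 in shLuciferase. The shTardbp values lay below all shLuciferase values but overlapped the shGFP values. The difference was -0.98 (SE 0.205, limma adjusted p = 0.00216), and it rests on 1 probe set. Against shLuciferase it was -1.37 (adjusted p = 0.000948), and against shGFP -0.59 (adjusted p = 0.0778; -0.65 and 0.00873 with the replicate number as a block). Mrpl39, a mitochondria-specific protein near the tunnel, fell by 0.42 on the log2 scale (adjusted p = 0.00140), with all 4 shTardbp values below all control values. Of the 5 measured genes listed here for the tunnel (Mrpl17, Mrpl22, Mrpl24, Mrpl39 and Mrpl45), 2 fell and 1 rose. Mrpl45, which in human mitochondria helps anchor the ribosome to the inner membrane, had a difference of -0.15 (adjusted p = 0.196).

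Mrpl24, a relative of the bacterial tunnel protein L24, was the member that rose. It stood at 9.41, 9.42, 9.28 and 9.26 in shTardbp, against 9.25, 9.46, 9.14 and 9.15 in shGFP and 8.99, 9.05 and 8.70 in shLuciferase. The shTardbp values lay above all shLuciferase values and within the range of the shGFP values. The difference was 0.26 (SE 0.0818, limma adjusted p = 0.0253), made up of 0.09 against shGFP (adjusted p = 0.562) and 0.43 against shLuciferase (adjusted p = 0.00503). All 8 of its probe sets were higher, by 0.045 to 0.53. With the 7 control arrays taken as 1 group the adjusted p was 0.149, and without shTardbp 1 or shTardbp 2 it was 0.0738 or 0.0775.

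Mrpl32 needs cleavage by the m-AAA protease of the inner membrane before it can enter the ribosome, as shown in yeast and mouse. It stood at 8.21, 8.39, 8.33 and 8.40 in shTardbp, against 8.81, 9.003, 8.89 and 8.70 in shGFP and 8.79, 8.82 and 9.10 in shLuciferase. No shTardbp value reached a control value. The difference was -0.55 (SE 0.0787, limma adjusted p = 0.000115). The gene on the other strand of its promoter, Psma2, a subunit of the proteasome, starts 205 bases away and differed by 0.11 (adjusted p = 0.478).

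Mrpl37 is a large subunit protein with no bacterial relative. It stood at 9.59, 9.55, 9.49 and 9.56 in shTardbp, against 9.84, 10.19, 9.82 and 9.96 in shGFP and 10.09, 10.18 and 10.24 in shLuciferase. Every shTardbp value lay below every control value, and the difference was -0.51 (SE 0.0721, limma adjusted p = 9.30e-05). All 8 of its probe sets were lower, by 0.27 to 0.83 on the log2 scale. Its head-to-head partner Cyb5rl starts 128 bases away and differed by 0.0043 (adjusted p = 0.976).

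Mrpl54 lies near the stalk that recruits translation factors. It stood at 7.10, 7.19, 6.98 and 6.97 in shTardbp, against 7.54, 7.93, 7.37 and 7.34 in shGFP and 7.65, 7.76 and 7.56 in shLuciferase. All 4 shTardbp values were below the lowest control value, and the difference was -0.54 (SE 0.101, limma adjusted p = 0.000968). The other 3 measured stalk genes did not pass: Mrpl10 differed by -0.08 (adjusted p = 0.401), Mrpl12 by -0.28 (adjusted p = 0.106) and Mrpl11 by 0.22 (adjusted p = 0.195). So 1 of 4 stalk genes fell.

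In the central protuberance, 3 of 5 measured genes fell: Mrpl40, Mrpl38 and Mrpl52. Mrpl40 stood at 8.83, 8.61, 8.60 and 8.39 in shTardbp, against 9.09, 9.50, 9.34 and 9.10 in shGFP and 8.75, 8.92 and 8.98 in shLuciferase. The shTardbp values lay below all shGFP values, while shTardbp 1 lay above shLuciferase 1. The difference was -0.46 (SE 0.0957, limma adjusted p = 0.00196), with -0.65 against shGFP (adjusted p = 0.000412) and -0.27 against shLuciferase (adjusted p = 0.107). Mrpl38 fell by 0.41 on the log2 scale (adjusted p = 0.000388), with no overlap between groups. Mrpl27, measured by 1 probe set whose mean of 4.37 lay under the 25th percentile, differed by -0.11 (adjusted p = 0.682).

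In the small subunit, Mrps15 is a relative of bacterial S15, a protein that binds the ribosomal RNA early in assembly. It stood at 9.51, 9.76, 9.57 and 9.59 in shTardbp, against 10.12, 10.42, 10.15 and 10.16 in shGFP and 10.26, 10.33 and 10.10 in shLuciferase. The groups did not overlap, and the difference was -0.62 (SE 0.0750, limma adjusted p = 2.82e-05). Of its 7 probe sets, 7 were lower and 6 had no overlap between groups. The 20 nearest measured genes on each side of it on chromosome 4 had a median difference of -0.21, and with that subtracted -0.40 remained and still passed.

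Mrps2, whose human gene is linked to hearing loss, had the smallest adjusted p of the 68. It stood at 9.17, 9.09, 9.13 and 9.11 in shTardbp, against 9.63, 9.66, 9.68 and 9.56 in shGFP and 9.70, 9.76 and 9.99 in shLuciferase. The groups lay well apart, at a difference of -0.60 (SE 0.0625, limma adjusted p = 7.53e-06). Each of its 7 probe sets was lower, by 0.41 to 0.86 on the log2 scale, and in all 7 the groups did not overlap.

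Mrps24 is the relative of bacterial S3, at the entry of the message. It stood at 7.98, 8.15, 7.99 and 8.03 in shTardbp, against 8.63, 8.67, 8.33 and 8.31 in shGFP and 8.67, 8.61 and 8.59 in shLuciferase. Again shTardbp lay below all control arrays, and the difference was -0.52 (SE 0.0775, limma adjusted p = 0.000158). Its neighbours on chromosome 11 had a median difference of -0.26, so that -0.26 remained after subtraction and still passed.

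Mrps14, a relative of bacterial S14, stood at 6.54, 6.84, 6.99 and 6.94 in shTardbp, against 7.46, 7.44, 7.51 and 7.46 in shGFP and 7.17, 7.11 and 7.03 in shLuciferase. The shTardbp values were lowest, shLuciferase lay between, and shGFP was highest. The difference was -0.46 (SE 0.0784, limma adjusted p = 0.000457). The controls themselves differed, with shGFP higher than shLuciferase by 0.36 (adjusted p = 0.0243).

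**Figure D3:**
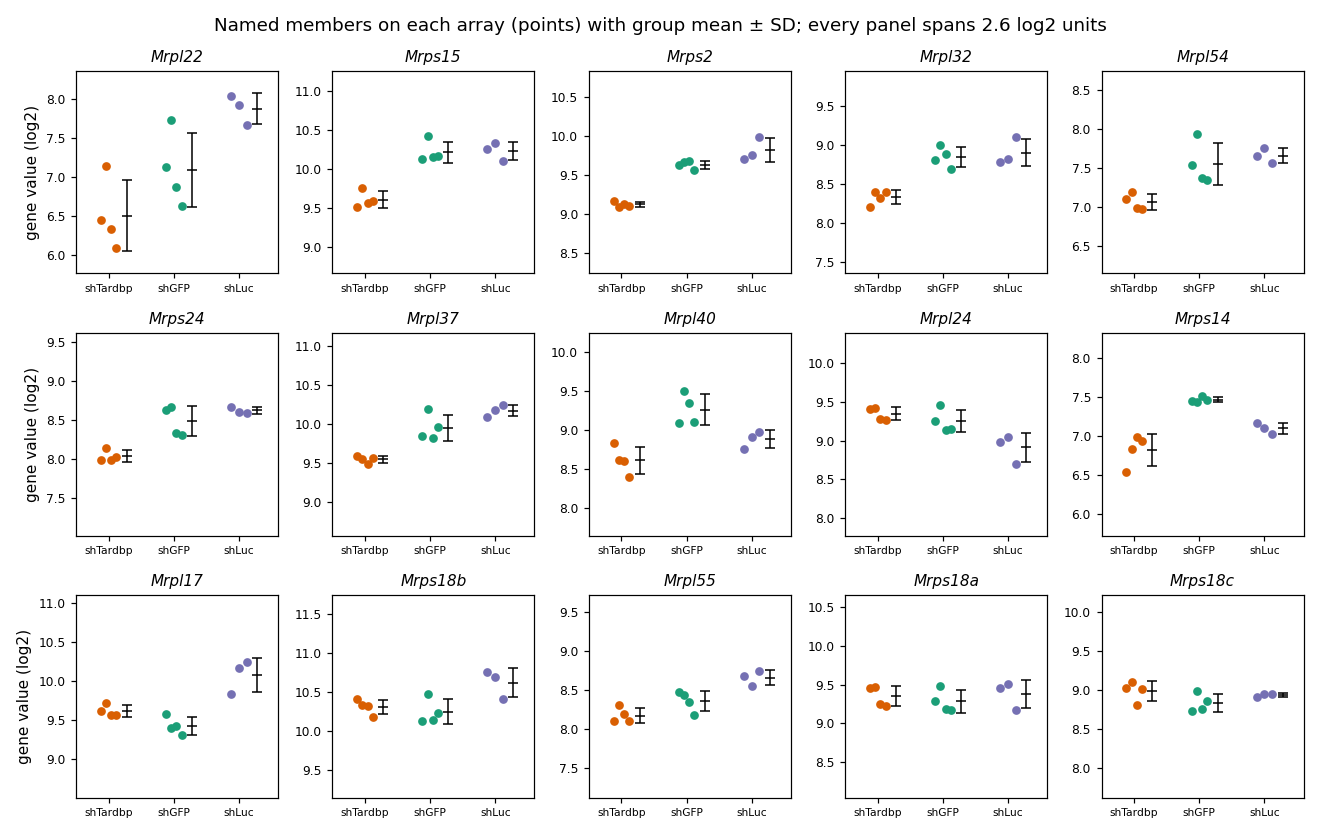
Log2 gene value of 15 members on each array (points), with the group mean ± SD, for shTardbp, shGFP and shLuciferase (shLuc); each panel spans 2.6 log2 units. Mrps15, Mrps2, Mrpl32, Mrpl54, Mrps24 and Mrpl37 show no overlap between shTardbp and the controls, while Mrpl17 and Mrps18b show shTardbp beside shGFP and below most or all of shLuciferase.

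Bacterial S18 has 3 relatives in mammalian mitochondria, Mrps18a, Mrps18b and Mrps18c, of which the first sits in the large subunit. None of the 3 passed the threshold against both controls. Mrps18a stood at 9.45, 9.47, 9.25 and 9.22 in shTardbp, against 9.29, 9.48, 9.19 and 9.17 in shGFP and 9.46, 9.50 and 9.18 in shLuciferase, a difference of 0.019 (limma adjusted p = 0.923). Mrps18c, with 1 probe set, stood at 9.04, 9.10, 8.81 and 9.02 in shTardbp, against 8.73, 8.99, 8.76 and 8.86 in shGFP and 8.91, 8.95 and 8.95 in shLuciferase, a difference of 0.10 (adjusted p = 0.327). The groups overlapped for both genes. Mrps18b stood at 10.41, 10.34, 10.32 and 10.19 in shTardbp, against 10.14, 10.48, 10.14 and 10.23 in shGFP and 10.76, 10.69 and 10.41 in shLuciferase, a difference of -0.12 (adjusted p = 0.360). The shTardbp values of Mrps18b lay within the shGFP range and below shLuciferase 1 and 2, while shTardbp 1 (10.409) lay just above shLuciferase 4 (10.406).

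The other members that fell were Mrpl50, Mrpl13, Mrpl55, Mrpl1, Mrpl9, Mrpl19, Mrpl30, Mrpl15, Mrpl41, Mrpl33, Mrpl36 and Mrpl4 of the large subunit and Mrps9, Mrps30, Mrps23, Mrps17, Mrps22, Mrps11, Mrps12, Mrps27, Mrps25 and Mrps5 of the small. Among them the differences ran from -0.46 for Mrps9 and Mrpl50 to -0.20 for Mrpl4. Of 21 members listed here as having no bacterial relative, 12 fell and 0 rose (median -0.28). Of the 47 members outside that list, 22 fell and 1 rose (median -0.22). These 47 include Mrpl55 and Mrps30, and not all of them need have a bacterial relative. The members that did not pass include Mrpl2, Mrpl3, Mrpl14 and Mrpl16 of the large subunit, with differences of -0.026, -0.17, -0.097 and -0.0025. With the median change of the neighbouring genes subtracted, 28 of the 34 remained lower. By position, 0 of 7 members on chromosome 17 and 0 of 5 on chromosome 19 fell, while 4 of 4 on chromosome 1, 4 of 5 on chromosome 13 and 5 of 10 on chromosome 11 fell. Of all genes, 16.6% fell on chromosome 17, 6.14% on chromosome 19, 23.5% on chromosome 1, 19.5% on chromosome 13 and 22.8% on chromosome 11. On chromosome 4, 3 of 4 members fell (32% of all genes there), and on chromosome 16, 2 of 3 (28.5%). On chromosome 6, 2 of 5 fell (9.33%), and on chromosome 8, 0 of 2 (18.6%). The other chromosomes with members are not listed here.

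Mrps11 and Mrpl46 start 42 bases apart on opposite strands. Mrps11, a relative of bacterial S11, stood at 7.50, 7.83, 7.92 and 7.35 in shTardbp, against 7.91, 7.98, 8.10 and 7.72 in shGFP and 8.02, 8.12 and 7.85 in shLuciferase. The groups overlapped, and the difference was -0.32 (SE 0.110, limma adjusted p = 0.0424). Mrps11 did not pass with any 1 of 7 arrays left out (shTardbp 1 or 4, shGFP 1, 2 or 3, or shLuciferase 1 or 2; adjusted p up to 0.165). It also missed the threshold when probe sets were summarised by their median (0.271), when its neighbours were subtracted (0.0565) and with the code letter as a block (0.723). Mrpl46, of the central protuberance, stood at 7.46, 7.45, 6.84 and 7.28 in shTardbp, against 7.27, 7.54, 7.28 and 6.92 in shGFP and 7.54, 7.59 and 7.06 in shLuciferase, a difference of -0.065 (adjusted p = 0.818). Whether the 2 genes differed from each other was not tested. Of the 10 members that fell and had a measured head-to-head partner, 2 had a partner that fell, Mrpl40 with Hira (-0.23, adjusted p = 0.0236) and Mrps12 with Sars2 (-0.84, adjusted p = 1.06e-06). Of the 11 not called, 3 had a partner that fell and 2 a partner that rose. Of all genes, 17% fell and 13.5% rose. The pair of Mrps11 and Mrpl46 was counted from both sides, with Mrps11 among the 3 partners that fell.

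The members were also set against each control alone, in comparisons that share the shTardbp arrays. Against shGFP, 21 of the 68 fell, 2 rose and 45 did not pass, with a median of -0.17, while 15.5% of all genes fell and 12.4% rose (27.9% together). Against shLuciferase, 35 fell, 1 rose and 32 did not pass, with a median of -0.28, while 14.3% fell and 11.8% rose (26.1% together). Against each of the 2, 18 fell (9.39% of all genes) and 0 rose (7.69%), and 0 passed in opposite directions. The 2 that rose against shGFP alone were Mrpl11 (0.38, limma adjusted p = 0.0430) and Mrpl43 (0.25, adjusted p = 0.0498). With 1 array left out, neither passed in 7 of 11 fits (without shTardbp 1, 2 or 4, shGFP 1, 3 or 5, or shLuciferase 1), and Mrpl43 passed only without shGFP 2. With the replicate number as a block, Mrpl11 passed (adjusted p = 0.0107) and Mrpl43 did not (0.0721).

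**Figure D4:**
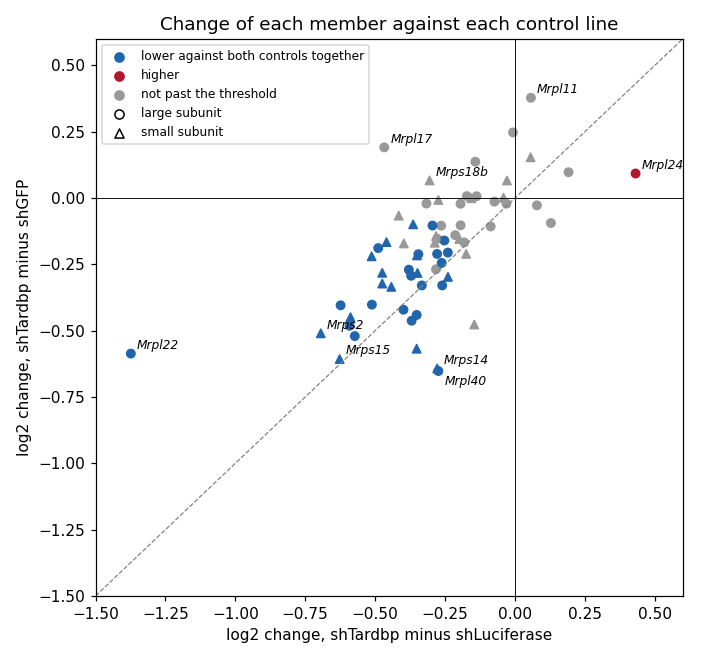
Log2 difference of each member in shTardbp minus shLuciferase (horizontal) and minus shGFP (vertical); circles are large and triangles small subunit genes, coloured by the call against both controls, and the dashed line marks equal differences. Most points lie below 0 on both axes, with Mrpl22 at -1.37 and -0.59, and the axes share the shTardbp arrays.

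The controls also differed from each other, though few members passed the threshold. In shGFP against shLuciferase, 3 passed as lower and 2 as higher, while 4.82% of all genes were lower and 6.26% higher (11.1% together). Of the 68, 53 were below 0, against 8269 of all 15803 genes, and the median of the 68 was -0.10. That median was -0.062 without shGFP 5 and -0.051 with the replicate number as a block. With 1 array left out, the count of 5 ran from 2 (without shGFP 3, shGFP 5, shLuciferase 1 or shLuciferase 4) and 3 (without shTardbp 3 or shLuciferase 2) to 10 (without shGFP 2). Of the 10, 9 were lower. Over these fits the share of all genes that were lower ran from 3.02% (without shLuciferase 2) to 5.16% (without shGFP 2). Mrpl17, at the tunnel exit, stood at 9.58, 9.40, 9.43 and 9.31 in shGFP, against 9.84, 10.17 and 10.25 in shLuciferase, a difference of -0.66 (limma adjusted p = 0.000686). In shTardbp it stood at 9.62, 9.73, 9.57 and 9.57, between the control groups, with 0.19 against shGFP (adjusted p = 0.155) and -0.47 against shLuciferase (adjusted p = 0.00294). Mrps18b (-0.37, adjusted p = 0.0334) and Mrpl55 (-0.30, adjusted p = 0.0393) were lower in shGFP than in shLuciferase. Mrpl55 stood at 8.09, 8.30, 8.18 and 8.09 in shTardbp, against 8.47, 8.43, 8.34 and 8.18 in shGFP and 8.68, 8.55 and 8.75 in shLuciferase. It fell in shTardbp against both controls (-0.34, adjusted p = 0.00219), and the lowest shGFP value lay within the shTardbp range. Mrps14 and Mrpl24 (0.34, adjusted p = 0.0428) were higher in shGFP. Mrpl22 (-0.79, adjusted p = 0.0606) and Mrpl40 (0.38, adjusted p = 0.0529) had larger differences between the controls that did not pass.

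The code letter in the descriptions is almost the same split as the groups, and shLuciferase 4 is the only control array that shares the letter P. Against that array, all 4 shTardbp values were lower in 47 of the 68 members (31 large, 16 small), while this held for 36.9% of all genes, and they were all higher in 7, against 26.3%. With the letter as a block in the fit, 10 members fell and 1 rose, while 8.14% of all genes fell. The median of the members was -0.26 in that fit and -0.24 without the block, and the median SE was 0.148 and 0.0827. Of the 34 members that fell, 9 also fell in that fit: Mrpl1, Mrpl32, Mrpl37, Mrpl50, Mrpl55, Mrps15, Mrps2, Mrps24 and Mrps25.

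Most probe sets of the members had lower means in shTardbp. Of 391 probe sets, 338 had a lower mean in shTardbp (86.4%), against 49.3% of all 179496, and in 65 (16.6%) all shTardbp values lay below all control values, against 5.78%. In 1 of them (0.256%) all lay above, against 5.43%. In 46 of the 68 members every probe set had a lower mean, and in 5 none did: Mrpl24, Mrpl43, Mrpl21, Mrpl51 and Mrps18c. These counts include the 6 members with 1 probe set, among them Mrpl51 and Mrps18c. The probe sets of Mrpl21 averaged 4.44, 4.11 and 6.39, where the 25th percentile was at 4.52. Because TDP-43 regulates splicing, each probe set was also tested against the others of its gene. Of 369 probe sets in 58 members, 0 passed at a limma adjusted p under 0.05, against 0.879% of all 101898, while 47 (12.7%) had an unadjusted p under 0.05, against 12%. By diffSplice, which uses 1 variance per gene, 3 passed, named after their values were seen: probe sets of Mrpl38 (0.60, diffSplice adjusted p = 0.00722), Mrps15 (-0.48, diffSplice adjusted p = 0.0288) and Mrps35 (-0.72, diffSplice adjusted p = 0.0430), relative to the other probe sets of each gene. The share of all probe sets that passed by diffSplice is not given here, so the 3 have no background to be read against. A further 14 probe sets carried a symbol of this kind and another symbol and were not used. Of these, 3 with Mrpl27 and EG622268 averaged 8.78, 9.01 and 8.24 in shTardbp, against 9.49, 9.30 and 8.82 in shGFP and 9.48, 9.56 and 8.94 in shLuciferase. All 3 were lower, by 0.42 to 0.71 on the log2 scale, while the 1 probe set counted for Mrpl27 lay under the 25th percentile. One with Slc5a3 and Mrps6 differed by -0.12. The other 10 carried Mrpl53, which has no probe set of its own here and is not among the 68, together with Ccdc142. Of these, 5 with shTardbp means of 8.38 to 10.6 differed by -0.26 to -0.036, 1 averaged 6.53 in shTardbp, against 5.15 in shGFP and 4.84 in shLuciferase, and 4 differed by -0.16 to 0.19. These values were looked at without a test.

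Genes that work with the mitochondrial ribosome were read in the same fit, and each list is given by its counts, to be read against the 17% of all genes that fell and the 13.5% that rose. Of 5 other ribosome proteins without such a symbol, 2 fell: Ict1 (-0.38, limma adjusted p = 0.00948), a hydrolase that frees stalled peptides, and Chchd1 (-0.33, adjusted p = 0.0355). Against shGFP alone 0 of these 5 fell, beside 15.5% of all genes, and against shLuciferase alone 2 fell, beside 14.3%. Of 15 assembly and rRNA modification genes, 6 fell (40%) and 0 rose, with a median of -0.19. Eral1, which binds the small subunit RNA, fell by 0.37 on the log2 scale (adjusted p = 0.000659), the helicase gene Ddx28 by 0.43 (adjusted p = 0.000717) and Fastkd2 by 0.30 (adjusted p = 0.00766). Of 12 translation factors, 1 fell (8.33%), the elongation factor Tsfm (-0.30, adjusted p = 0.00139), and the median was -0.0057.

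Of 18 mitochondrial aminoacyl-tRNA synthetase genes, which also include amidotransferase subunits, 6 fell (33.3%) and 2 rose (11.1%), with a median of -0.10. Sars2, which charges the serine tRNAs, stood at 7.32, 7.39, 7.46 and 7.38 in shTardbp, against 8.15, 7.98, 7.95 and 7.77 in shGFP and 8.50, 8.53 and 8.41 in shLuciferase. The groups did not overlap, at a difference of -0.84 (SE 0.0694, limma adjusted p = 1.06e-06), beside -0.31 (adjusted p = 0.0103) for its head-to-head partner Mrps12. Yars2 (-0.37, adjusted p = 0.000160) and Pars2 (-0.53, adjusted p = 0.000611) also fell.

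Of 13 genes for the upkeep and expression of mitochondrial DNA, 5 fell (38.5%) and 0 rose, with a median of -0.13. Tfam, which packages and transcribes mitochondrial DNA, stood at 7.67, 7.85, 7.82 and 7.73 in shTardbp, against 8.26, 8.57, 8.49 and 8.43 in shGFP and 8.34, 8.32 and 8.01 in shLuciferase. The groups did not overlap, at a difference of -0.56 (SE 0.0791, limma adjusted p = 9.75e-05). Pnpt1, an RNA-degrading enzyme, fell by 0.49 on the log2 scale (adjusted p = 3.24e-05) and Elac2, which trims tRNAs, by 0.38 (adjusted p = 0.000107). Of 10 regulators of mitochondrial biogenesis, 4 fell (40%) and 2 rose (20%). Myc fell by 0.59 (adjusted p = 5.09e-06) and Gabpa by 0.33 (adjusted p = 0.00200), while Ppargc1b rose by 0.33 (adjusted p = 0.00170). Against shGFP alone 3 of the 10 fell and 2 rose, beside 15.5% and 12.4% of all genes. Against shLuciferase alone 4 fell and 0 rose, beside 14.3% and 11.8%, so the rise of Ppargc1b did not pass against shLuciferase.

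Of 60 subunits of the respiratory chain and ATP synthase encoded in the nucleus, 13 fell (21.7%, against 17% of all genes) and 5 rose (8.33%, against 13.5%), with a median of -0.10. Cox6a2, a cytochrome oxidase subunit of heart and muscle, rose (0.85, limma adjusted p = 8.22e-06), while Atp5j fell by 0.80 on the log2 scale (adjusted p = 0.000224) and Uqcrc1 by 0.34 (adjusted p = 0.000321). Of 27 proteins of the cytosolic ribosome, 4 fell (14.8%, against 17% of all genes) and 0 rose, with a median of -0.087. They were Rps20, Rps27l, Rpl14 and Rps7, each with 1 probe set, and the last 2 had shTardbp means of 4.32 and 3.73, under the 25th percentile. Rps27l was named after its value was seen. The difference between these lists and the mitochondrial ribosome genes was not tested.

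**Figure D5:**
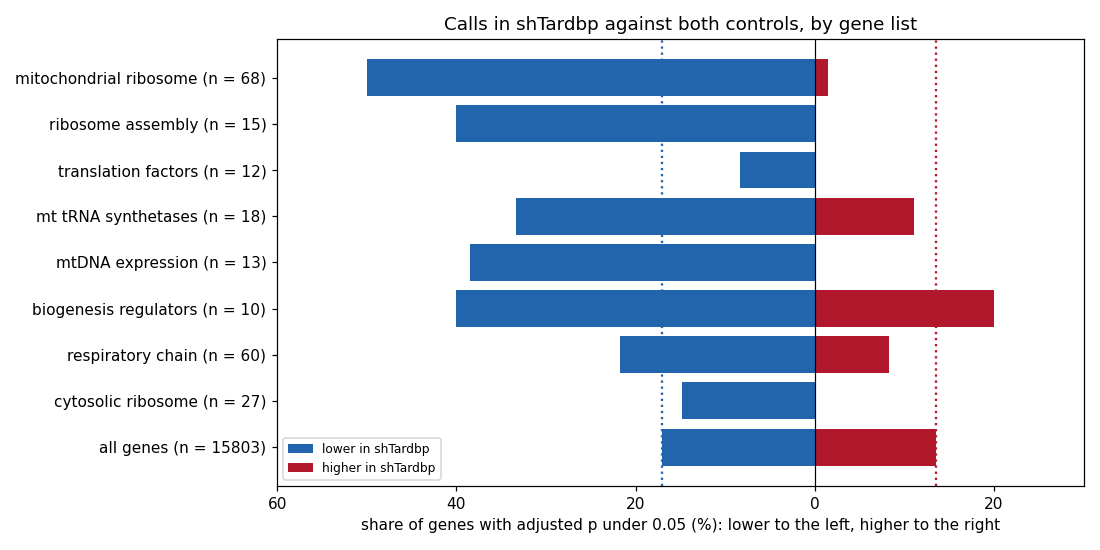
Share of genes with an adjusted p under 0.05 in shTardbp against both controls, by gene list (percent; lower to the left, higher to the right), with dotted lines at the shares of all genes (17% and 13.5%). The mitochondrial ribosome genes are at 50% lower and 1.47% higher, the respiratory chain at 21.7% and 8.33%, and the cytosolic ribosome at 14.8% and 0%.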

How the data were processed

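RNA was amplified, converted to cDNA and measured, per the labels' protocols, on Affymetrix whole-transcript arrays. The authors deposited log2 values for 194293 probe sets. Per the submitters' processing notes the tools were Partek and RMA, without versions. Genome build and normalization settings are not given in these sources. The platform annotation gave 179496 probe sets 1 symbol, 1328 several and 13469 none, and only the first kind was used, which made 15803 genes. Of the 68 members, 6 have 1 probe set (Mrpl22, Mrpl27, Mrpl51, Mrps10, Mrps18c, Mrps36).

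Probe sets were averaged per gene. No low values were filtered out, and detection was not called. For all genes a 3-group linear model was fitted in R 4.3.3 (limma 3.58.1, lmFit and eBayes), with Benjamini-Hochberg adjustment over all genes and a threshold of 0.05. Contrasts set shTardbp against both controls (equal weight for each control group) and against each of them, and shGFP against shLuciferase. Usage was the log2 value of a probe set minus the mean of the others of its gene, for probe sets above the 25th percentile in genes above the median with at least 3 of them. The number of arrays limits the precision. Replicate numbers come from the titles, and no label says that arrays of the same number are paired. Deviations from the group means correlated at 0.12 to 0.20 over the 3 same-number pairs of shTardbp and shGFP. The 13 pairs of these groups with different numbers ran from -0.24 to 0.29. The 5 same-number pairs with shLuciferase ran from -0.056 to 0.26, and all 32 pairs of different number from -0.29 to 0.29. Arrays were not paired in the main fit, and the replicate number was a block only in an alternative.

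Members and gene lists were chosen with earlier results of these data known. Given in full are the 8 largest falls and rises past the threshold, up to 3 of the largest differences each way between the controls among members past the threshold, the Mrps18 paralogues and up to 3 genes with the smallest adjusted p of each list. Alternatives were the median of probe sets, filters on low probe sets or genes, renewed quantile normalization, centring, the code letter or replicate number as a block, 1 control group, 20 neighbours a side subtracted, subunit by structure, and each array left out. RefSeq gave current symbols for 13727 genes and a position for 15766.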

Additional observations from a re-analysis of the deposited data

Results flagged for a closer look

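In 138 groups of 4 arrays looked at (each member and Tardbp, in shTardbp and in shGFP), 7 held an array whose gap to the nearest other was large for the range of the group, and chance marks about 1 in 20. In shTardbp these were Mrpl39 at 8.91 in shTardbp 1, with the others between 9.31 and 9.33, Mrpl28 at 7.90 in shTardbp 2, with the others between 7.68 and 7.71, Mrpl15 at 10.01 in shTardbp 4, with the others between 9.77 and 9.79, and Mrpl33 at 6.87 in shTardbp 4, with the others between 6.95 and 6.96. In shGFP they were Mrpl13 at 9.54 and Mrps15 at 10.42 in shGFP 2, with the others between 9.20 and 9.26 and between 10.12 and 10.16, and Mrps16 at 6.53 in shGFP 5, with the others between 6.75 and 6.77. Mrpl39, Mrpl15, Mrpl33, Mrpl13 and Mrps15 are among the genes that fell. Of these, Mrpl33 did not pass without shTardbp 4 (adjusted p = 0.0623), while the other 4 fell with each array left out in turn.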

How the results depend on the processing

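With the code letter as a block, which leaves 1 control array beside the shTardbp arrays, 11 members passed (7 large, 4 small) in place of 35, and the counts were 7 against shGFP (23 without the block), all lower, beside 6.52% of all genes lower, 18 against shLuciferase (36), 17 of them lower, beside 9.76%, 2 between the controls (5) and 16 over the comparison lists (50). Tardbp was then -0.29 (adjusted p = 0.173) and Mrps18b 0.14. With the median of the probe sets, 9 small subunit genes passed in place of 14, all lower, while 12.9% of all genes fell in place of 17%. Against shLuciferase 22 members passed, 21 of them lower, beside 9.97% of all genes lower (14.3% in the main fit). Between the controls 2 members passed, as lower, beside 2.33% of all genes lower (4.82% in the main fit). The count between the controls was also 10 (7 lower) with only genes above the median level, beside 9.43% of the genes tested in that fit lower. It was 8 (5 lower) after renewed quantile normalization, beside 5.52% of all genes lower. For usage, where 0 passed, diffSplice gave 3, no filter 1 and the code letter as a block 1. With the replicate number as a block, 36 members passed (34 lower), 23 large and 13 small, with 25 against shGFP and 34 against shLuciferase. The count between the controls was then 3 (2 lower), beside 2.33% of all genes lower. Against shGFP this block changed the call of 6 members: Mrpl22, Mrpl33, Mrps11 and Mrps17 passed as lower, while Mrps30 and Mrpl43 no longer passed, so that 1 rose in place of 2. It moved no other count by over 1.5 times. With 1 array left out the counts were 29 to 36 members, 17 to 22 large, 12 to 16 small, 16 to 25 against shGFP, 24 to 36 against shLuciferase, 2 to 10 between the controls (10 without shGFP 2), 0 to 2 for usage and 37 to 59 over the lists, and Tardbp was -0.44 to -0.37. Mrps18a was -0.079 with its neighbours subtracted, and with 1 array left out it ran from -0.032 (without shLuciferase 4) to 0.062, also below 0 without shTardbp 1 or shTardbp 2. Of the 34 members that fell, 25 fell with each array left out in turn, 28 with neighbours subtracted, 25 with the median of the probe sets and 8 under every setting run. Apart from what its construction shows, the cause of each change was not tested.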
